A study of Mus musculus with 15 samples.

Results

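The probes described here target exons of long intergenic noncoding RNAs (lincRNAs) whose signal was highest in adult mouse liver. A lincRNA exon probe was taken when it was well above background, by the scanner software's own flag, on all 3 arrays of at least 1 stage, and when its adult mean exceeded the highest of the other 4 stage means by at least 1 on a log2 scale, which is 2-fold. Of 3457 lincRNA exon probes on the array, 1874 passed the background condition and 119 of these met the adult rule, 6.35% of those tested. Over all 37361 probes tested, of 59709 on the array, the same rule took 7.09%, so the share among lincRNA exons was near that of the array as a whole. The adult difference chose the probes, and every value of Adult against an earlier stage below is a description with no test. All 119 passed the background condition in Adult, so counts of probes detected there carry no information.

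Liver of C57BL/6 mice, an inbred laboratory strain, was profiled at 3 embryonic stages (E12.5, E14.5 and E17.5, named by the day of gestation), in newborns (Neonatal) and in adults at 8 weeks (Adult), with 3 one-colour arrays per stage and 15 in all. No allele, agent or treatment is named in the labels, and the neonatal age is given no further. The series set out to follow mRNAs and long noncoding RNAs through liver development. Whether the 3 arrays of a stage stand for separate animals is not stated in the labels; p-values therefore reflect the spread between these samples alone, and that spread may be technical.

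LincRNAs are transcripts that lie between protein-coding genes and carry no long open reading frame; many are spliced and polyadenylated like mRNAs, and their levels tend to be more restricted to a tissue or stage than those of mRNAs. Some act on neighbouring genes or bind chromatin-modifying complexes, and for most no function is known. Before birth the liver makes blood cells, and its hepatocytes take on much of their adult metabolic programme around and after birth. In bulk tissue, fewer cells of a type and less RNA per cell cannot be told apart.

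Each probe is named for an exon number and a sign, for example MM9LINCRNAEXON10834-, and is written here as 10834-. The array's probe grid was built on the mouse assembly mm9, per the file headers. The 119 probes stood for 108 exon numbers, 53 with a plus and 66 with a minus sign, among 863 plus and 1011 minus probes tested. Of the 1729 exon numbers on the array, 1728 had a probe of each sign. The files do not define the sign, nor do they pair the exons with genes, so no gene, position or function is given for any of them. Signals are log2 of the processed intensity minus the array's own 75th percentile, so a value of 0 is the level of that percentile on the array. Probes differ in how brightly they report the same amount of RNA, so levels are compared only within a probe.

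Signal over background stands for depth on these arrays, and 3 features of the arrays bear on the results. On E17.5 replicate 1 the negative-control spots averaged -3.22 on the scaled log2 axis, against -5.45 to -4.61 on the other 11 arrays before Adult and -5.41 to -4.87 on the adult arrays. Adult replicate 2 lay below the mean of the other 2 adult arrays by a median of -0.37 over the 119 probes, -0.35 over all lincRNA exons tested and -0.18 over all probes tested, and it was the lowest adult array for 92 of the 119. Without that array 188 probes met the rule, 115 of them among the 119, and without E17.5 replicate 1 it was 124, with 115 shared. By scan date the arrays fell into 2 sets, which are taken to be slides and called so here. Slide 1 held every array of E12.5 and of E14.5 with replicates 1 and 2 of E17.5. Slide 2 held E17.5 replicate 3 and all Neonatal and Adult arrays. Adult and the 2 earliest stages thus never shared a slide, and slide and stage cannot be told apart for those contrasts. The tissue label could not be checked with hepatocyte genes, because 0 of 12 listed hepatocyte markers had a named probe. Of 58 markers listed for liver and neighbouring cell types, 5 had one. Tfrc, the transferrin receptor through which red cell precursors take up iron, had means of 8.89, 8.86, 8.58, 8.16 and 5.5 over the 5 stages in order of age. B2m, the light chain of MHC class I, averaged 10.05 ± 0.29 in Adult against 8.80 ± 0.14 in Neonatal (SD, n = 3 each). The chemokine probe Ccl21b had means of 1.23, 1.72, 1.04, 0.06 and 2.45 over the stages in order of age, with an adult SD of 0.92. Ccl21c had 2.15, 2.73, 2.11, 1.17 and 2.80, with an adult SD of 0.71, so its adult mean was close to that of E14.5. Amy2a5, a pancreatic amylase, had means of -5.44, -0.58, 5.56, 6.03 and 2.26 over the stages in order of age, the first of them below background on every array. What part cell content has in these marker values or in the lincRNA exon values was not tested.

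The adult excess was mostly modest and in a few exons large. Adult exceeded the highest other stage mean by a median of 1.34, or 2.53-fold on the measured values, over the 119 probes, where the median of the same quantity was -0.30 over all lincRNA exons tested and -0.46 over all probes tested. The excess was below 1.25 in 50 probes, at least 2 in 18 and at least 3 in 5. Every adult array lay above every earlier array in 98 of the 119 probes, against 10.7% of all lincRNA exons tested and 11.3% of all probes tested; in the other 21 at least 1 earlier array reached an adult one. Since the rule chose on the adult means, a higher share and a higher median than over all probes were built in. The stage next below Adult was Neonatal for 75 probes, E17.5 for 29, E12.5 for 8 and E14.5 for 7.

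The probes fell into 3 groups by their detection before Adult. On all 15 arrays 46 probes were well above background, 8 were above it on no array before Adult, and the other 65 were above it on some earlier arrays. On single arrays 53, 57 and 63 of the 119 were above background on the E12.5 arrays, 63, 60 and 57 on the E14.5 arrays, 89, 60 and 75 on the E17.5 arrays, and 88, 87 and 86 on the Neonatal arrays. The 89 on E17.5 replicate 1 stood beside the raised negative controls of that array. Many dim values were the lowest value of their array, a floor shared by many probes and not a reading. It was held by 37, 27 and 21 of the 119 on the E12.5 arrays, 24, 27 and 20 on the E14.5 arrays and 4, 23 and 0 on the E17.5 arrays. No Neonatal or Adult array had any of the 119 at it. On each array that the scanner software had multiplicatively detrended, all on slide 2, only 1 probe held the lowest value. The lack of a shared floor there is therefore no sign of higher signal. On Adult replicate 2, which was not detrended, 10402 probes of the whole array held it. A shared floor thus went with the processing, which differed between stages, and the floor enters the means, SDs and step tests of these probes. The median of the probe means was -3.39, -3.37, -2.57, -2.09 and -0.17 over the stages in order of age, where that over all lincRNA exons tested was -1.43, -1.48, -1.45, -1.63 and -1.33. Where a value was below background, the fold was recomputed with each array value raised to the lowest signal that counted as well above background on that array, which gives a lower bound. On this basis 94 of the 119 probes remained at least 2-fold and 15 at least 4-fold above every earlier stage: all 46 of the group above background on all arrays, 47 of the 65 and 1 of the 8 kept 2-fold. With the background corrected by the normexp method instead, 42 probes met the rule, all of them among the 119.

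**Figure D1:**
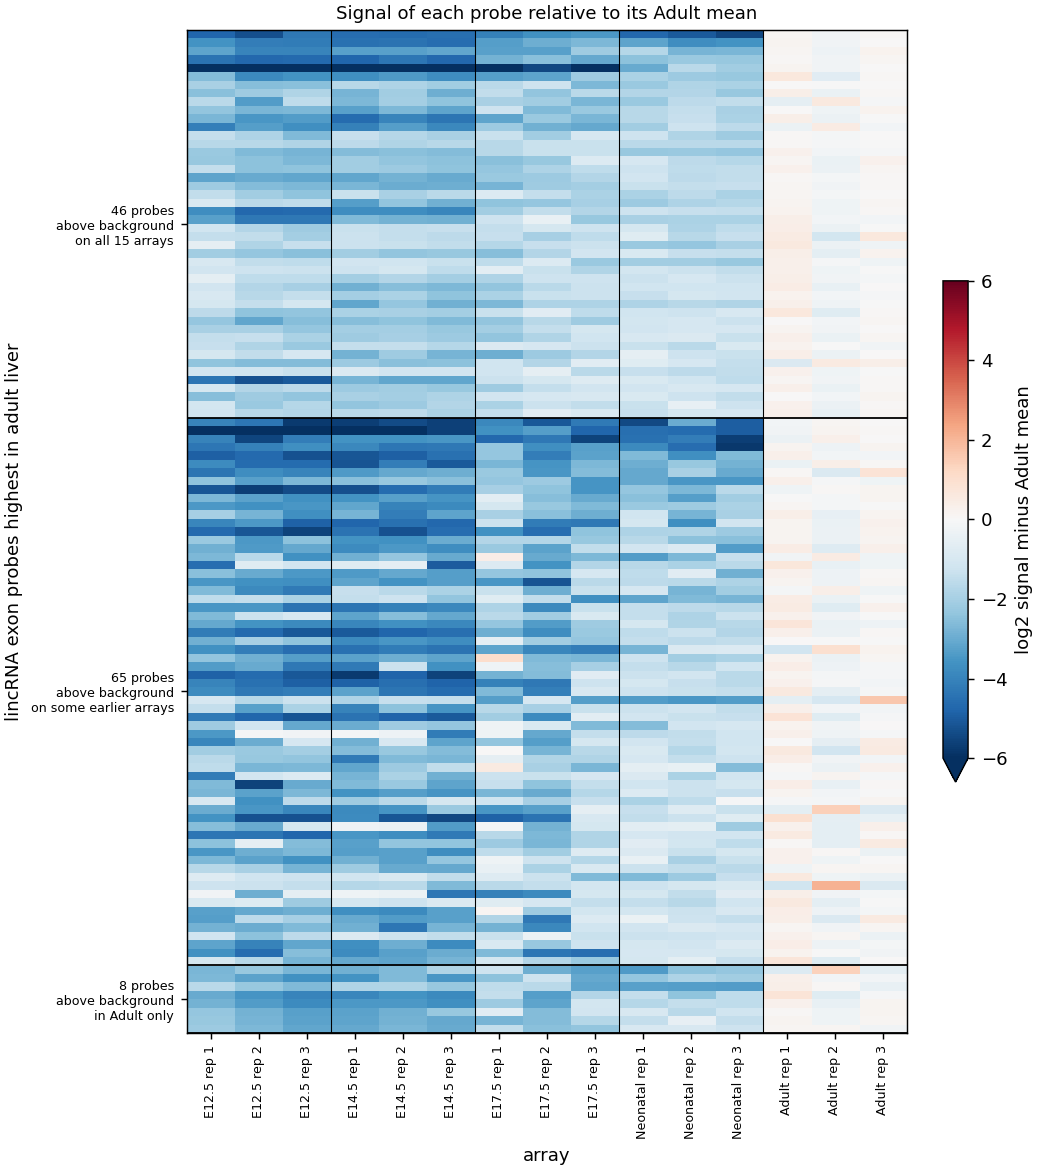
Heat map of the 119 lincRNA exon probes (one line each) on the 15 arrays, as log2 signal minus the probe's own Adult mean; blue is below and red above that mean, values below -6 share the darkest blue, and probes are grouped by detection and ordered by adult difference. The earlier arrays are blue in nearly all probes, the adult columns are near white, and paler cells stand out on E17.5 replicate 1 in the middle group.

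The largest adult difference was that of 10834-, at 4.40. Its 3 arrays read -4.11, -4.49 and -5.89 on the E12.5 arrays, -5.83, -5.53 and -5.77 on the E14.5 arrays, -4.04, -5.26 and -4.41 on the E17.5 arrays, -5.59, -3.14 and -5.12 on the Neonatal arrays, and -0.32, -0.06 and -0.12 on the Adult arrays. All of its E14.5 values, and those of E12.5 replicate 3 and E17.5 replicate 2, were the lowest values of their arrays. Only 1 array before Adult, a neonatal one, was above background, so the adult signal was at least 7.63-fold that of the earlier stages. The adult arrays lay within 0.3 of each other and more than 2 above every earlier array.

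Exon 10291- was low at first, intermediate around birth and high in Adult. Its arrays read -4.96, -4.89 and -3.93 on the E12.5 arrays, -4.81, -3.63 and -3.14 on the E14.5 arrays, -1.18, -0.84 and -2.33 on the E17.5 arrays, -2.10, -2.15 and -2.49 on the Neonatal arrays, and 2.22, 2.59 and 2.51 on the Adult arrays. It was above background on every E17.5, Neonatal and Adult array, and the adult mean was 14.9-fold that of E17.5, its next highest stage. No adult array came near an earlier one.

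Exon 10104 met the rule with both of its probes. Probe 10104-, which was above background on all 15 arrays, read 1.04, 0.53 and 1.48 on the E12.5 arrays, 1.23, 1.17 and 1.25 on the E14.5 arrays, 1.73, 2.16 and 2.34 on the E17.5 arrays, 1.06, 0.76 and 0.32 on the Neonatal arrays, and 5.89, 5.60 and 5.87 on the Adult arrays. The adult mean was 13.1-fold that of E17.5, and Neonatal held the lowest mean of the 5 stages. Probe 10104+ read -4.24, -3.95 and -3.60 on the E12.5 arrays, -3.78, -4.25 and -4.22 on the E14.5 arrays, -2.23, -3.61 and -3.16 on the E17.5 arrays, -3.76, -4.48 and -5.70 on the Neonatal arrays, and 0.24, -0.25 and 0.25 on the Adult arrays. It was above background on 1 array before Adult, that of E17.5 replicate 1, and its adult excess was at least 7.25-fold. The means of both probes were second highest at E17.5 and lowest in Neonatal. For 10104+ that order rests almost wholly on values below background and is not read. Over the 15 arrays, the adult ones that the rule chose on included, the 2 probes correlated at r = 0.96.

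The next probes in size of difference were mostly below background before Adult. Probe 11429- averaged 0.06 ± 0.34 in Adult and -4.69 ± 0.79 in Neonatal (SD, n = 3 each), with 1 earlier array above background and an excess of at least 8.91-fold. Probe 11772- averaged -0.04 ± 0.26 in Adult and -3.04 ± 0.59 in Neonatal, an excess of at least 6.92-fold. In contrast 11268+ was above background everywhere and read 0.10, -0.46 and -0.48 on the E12.5 arrays, -0.76, -0.75 and -0.89 on the E14.5 arrays, 0.38, 0.76 and 1.02 on the E17.5 arrays, 0.54, -0.03 and 0.10 on the Neonatal arrays, and 3.88, 3.49 and 3.72 on the Adult arrays. Its 12 earlier arrays stayed within a band of about 2 units, and the adult mean stood 7.88-fold above the E17.5 mean. Probe 10838- read 0.16, 0.93 and 0.63 in Adult and -2.37, -1.71 and -2.26 in Neonatal, 6.44-fold, and it was below background on every E12.5 and E14.5 array. Probes 11065- and 10398- completed the first 10, with adult differences of 2.68 and 2.45. The adult arrays of 11065- were spread from -1.09 to 0.56, the widest adult spread of the 10.

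**Figure D2:**
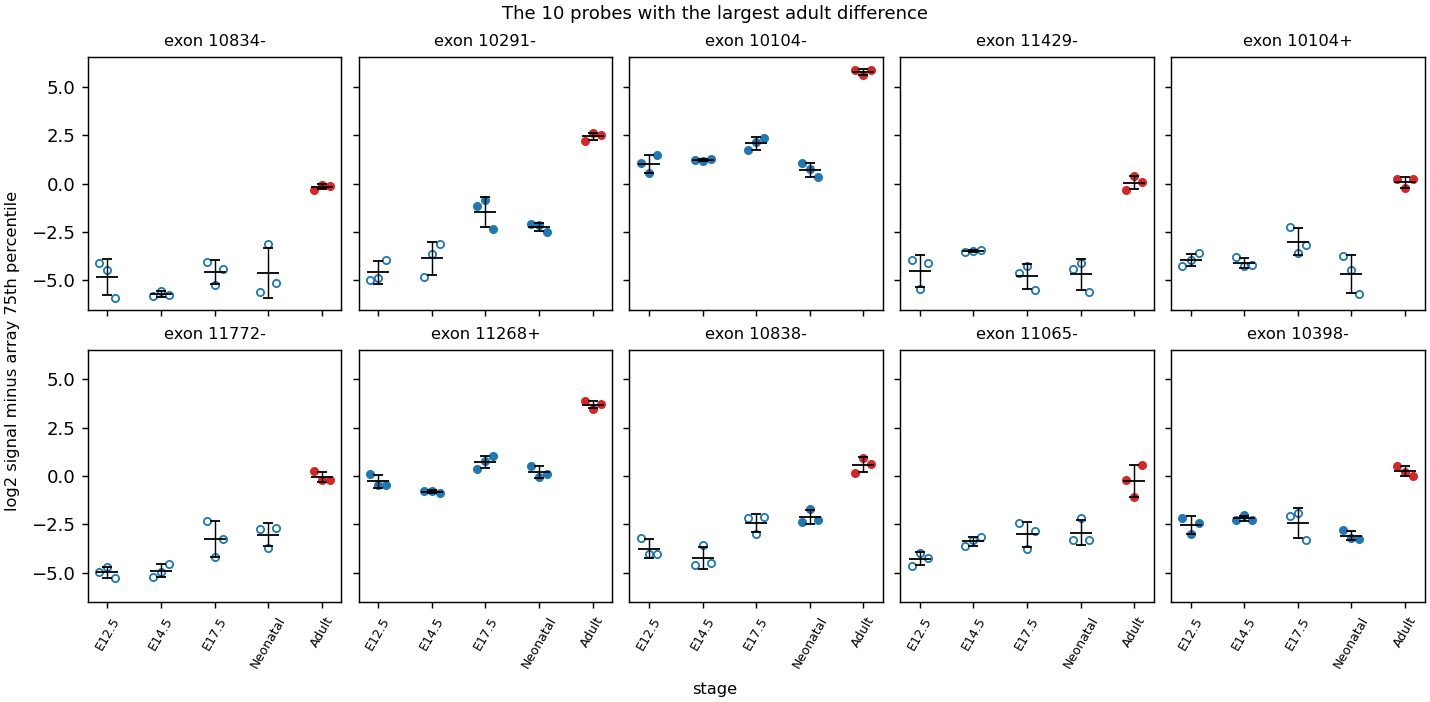
Log2 signal minus the array 75th percentile on each array for the 10 probes with the largest adult difference, by stage; circles are arrays, bars the mean and SD of 3 arrays, and open circles mark stages where not all 3 arrays were well above background. Adult arrays (red) lie above all earlier arrays in each panel, and 10104- and 11268+ are filled at every stage.

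Among the 46 probes above background on all 15 arrays, the adult difference had a median of 1.29 and its fold ran from 2.01 to 13.1. In 43 of the 46 every adult array lay above every earlier one. Stage means were higher at each of the 3 earlier steps in 8 of the 46. The E17.5 mean was above the E12.5 mean in 34 and the Neonatal mean in 39. The paths to the adult level differed between exons. Probe 11400+ was nearly flat before birth, with 7.35, 6.30 and 6.35 on the E12.5 arrays, 6.69, 6.58 and 6.33 on the E14.5 arrays, 6.45, 6.93 and 7.26 on the E17.5 arrays, 7.5, 7.25 and 7.27 on the Neonatal arrays, and 9.0, 8.42 and 8.88 on the Adult arrays. Its E12.5 to Neonatal arrays overlapped, and the adult ones lay above them all.

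Probe 11332+ had a higher mean at each later stage, with 3.59, 2.61 and 2.68 on the E12.5 arrays, 3.63, 3.62 and 3.42 on the E14.5 arrays, 5.24, 5.87 and 5.60 on the E17.5 arrays, 6.10, 5.96 and 5.92 on the Neonatal arrays, and 7.55, 7.08 and 7.39 on the Adult arrays. Only E12.5 and E14.5 overlapped. Probe 11530- read 3.03, 2.18 and 2.39 on the E12.5 arrays, 4.64, 4.30 and 4.30 on the E14.5 arrays, 6.13, 6.36 and 6.66 on the E17.5 arrays, 6.53, 6.24 and 5.89 on the Neonatal arrays, and 7.56, 7.20 and 7.52 on the Adult arrays. Its means differed most between the stages before birth, and its E17.5 and Neonatal arrays overlapped.

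Probe 10415- differed most around birth instead. It read -1.57, -1.48 and -2.74 on the E12.5 arrays, -1.91, -1.99 and -2.19 on the E14.5 arrays, -0.27, 0.45 and -0.49 on the E17.5 arrays, 2.90, 4.28 and 3.84 on the Neonatal arrays, and 6.09, 5.69 and 5.96 on the Adult arrays, 4.72-fold over Neonatal. Probes 10196- and 10088+ dipped first. Probe 10196- read 4.71, 4.36 and 4.73 on the E12.5 arrays, 2.64, 3.44 and 2.90 on the E14.5 arrays, 3.09, 3.90 and 3.93 on the E17.5 arrays, 3.92, 4.12 and 3.98 on the Neonatal arrays, and 6.05, 5.49 and 5.75 on the Adult arrays, so its second highest stage was the earliest one. Probes 10411-, 11553- and 11296+ were the others among the 10 with the highest adult signal, with adult means of 5.75 ± 0.28, 5.82 ± 0.50 and 5.42 ± 0.03 and Neonatal means of 3.34 ± 0.59, 4.59 ± 0.30 and 3.44 ± 0.23 (SD, n = 3 each).

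The 8 probes detected in Adult alone were dim. Their adult means ran from -2.77 to -1.94, and their excess was between 2.09-fold and 5.44-fold on the measured values and at least 1.25-fold to 2.23-fold with the background bound. Probe 11116+ was the one whose bound passed 2-fold, with -1.14, -2.65 and -2.02 in Adult and -3.34, -4.36 and -3.48 in Neonatal. Probe 10875- had the largest measured difference of the 8, and 1 adult array set much of it: its adult arrays read -3.05, -0.82 and -2.80, and its bound was 1.84-fold. The others were 11776-, 11122+, 10921+, 10003+, 11283- and 11242+. Without E17.5 replicate 1, the array with raised negative controls, 17 probes were above background in Adult alone; this count was added after seeing the data.

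Nearest above the threshold were 12054-, 10570-, 10209-, 11958+ and 11136-, with differences from 1.01 to 1.02. Nearest below it were 10637-, 11498+, 11848+, 11301+ and 11857-, with differences from 0.968 to 0.997. The 21 probes with overlap between adult and earlier arrays included 10007-, whose adult arrays read -2.72, 0.58 and -2.37 against -2.73, -2.56 and -2.43 in Neonatal, so that a single adult array carried its excess. Within slide 2, which held E17.5 replicate 3 and all Neonatal and Adult arrays, 102 of the 119 exceeded both stages by at least 1, with a median of 1.33 and a lowest value of 0.52. These are largely the values that chose the probes, since the rule already set Adult against the same Neonatal arrays, and they are no separate check. The rule applied to slide 2 alone took 198 probes.

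Changes between the earlier stages were not what the rule chose on, though the same stage means set its lower side, and these steps were tested with limma over all 37361 probes. Of the 119, 40 had all 3 arrays above background at no stage but Adult and so entered these tests through Adult alone. They held 1, 5 and 5 of the calls at the 3 steps in order, and the 79 others held 4, 23 and 12. The 40 stay in the counts, shares and medians below, but their calls are not read as changes. At the first step, E14.5 against E12.5, 2 of the 119 probes were called higher and 3 lower at an adjusted p below 0.05, where 1.82% of all probes tested were called higher and 3.11% lower, and 0.747% and 4% of lincRNA exons. The median difference was -0.11 over the 119 and -0.01 over all probes tested. Probe 11530- rose, with E14.5 arrays at 4.64, 4.30 and 4.30 against 3.03, 2.18 and 2.39 at E12.5. The groups did not overlap, and the log2 difference was 1.88 ± 0.27 (SE, limma adjusted p = 0.00124). Probe 10196- fell, by 1.61 ± 0.29 (SE, limma adjusted p = 0.00507), with E14.5 arrays of 2.64, 3.44 and 2.90 all below the E12.5 arrays of 4.71, 4.36 and 4.73. Probe 11440- fell by 1.49 ± 0.28 (SE, limma adjusted p = 0.0073), a call lost without E14.5 replicate 1 (limma adjusted p = 0.0562, with 0.00572 to 0.0562 over its alternatives). Probe 10088+ fell by 1.39 ± 0.34 (SE, limma adjusted p = 0.0321), and 6 of 15 alternatives lost that call. Probe 10161+, called higher with a difference of 1.96, was above background on 1 of the 6 arrays compared and entered the test through Adult alone. Its rise is not read, and 9 of 12 alternatives lost its call. The 5 calls became 8 without E12.5 replicate 1, 3 without E12.5 replicate 3, 2 without E14.5 replicate 1 and 3 without E14.5 replicate 3.

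The second step held the most calls, all of them rises. At E17.5, 28 of the 119 were called higher than at E14.5, 23.5%, where 6.3% of all probes tested and 6.56% of lincRNA exons were. None was called lower, where 0.814% of all probes and 0.747% of lincRNA exons were; limma at an unadjusted p below 0.05 gave 58 higher and 1 lower, and limma-trend called 26 higher and 0 lower. The median difference was 0.91 over the 119, against -0.04 over all lincRNA exons and -0.06 over all probes tested, and 103 of the 119 differences were positive, against 46.1% of all probes. It was 0.45 with normexp, 0.56 with quantile normalization, 0.60 over the 55 in the authors' value table and 0.51 over the 59 tested within slide 1. The difference from the share on the whole array was not tested, and the means of both stages also entered the rule. The called differences ran from 0.91 to 3.32, and 26 of the 28 were at least 2-fold on the measured values. Of the 28, 10 came from the group above background on all arrays and 18 from the middle group. The 8 probes below background on every array before Adult are not read at this step.

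Background bears on many of these calls. In 16 of the 28 no E14.5 array was above background, and in 6 of the 28 the only E17.5 array above it was replicate 1. Without that array 23 were called higher, 21 of them among the 28. Within slide 1, which held every E14.5 array but not replicate 3 of E17.5, 59 of the 119 passed the background condition and 10 were called higher, where 4.02% of all probes were. With the slide as a block 27 were called higher and 0 lower.

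The largest rise at this step was that of 11240-, whose E17.5 arrays read -2.94, -2.69 and -0.78 against -5.83, -4.89 and -5.65 at E14.5. The groups did not overlap, the log2 difference was 3.32 ± 0.45 (SE, limma adjusted p = 0.000467), and with the background bound the rise was at least 2.37-fold. Quantile normalization ended this call, with a difference of 2.20 (limma adjusted p = 0.104, with 0.000182 to 0.104 over its alternatives). Probe 11314+ rose by 2.60 ± 0.60 (SE, limma adjusted p = 0.0185), at least 1.41-fold, a call that 4 of 13 alternatives lost. Probe 11543- rose by 2.54 ± 0.42 (SE, limma adjusted p = 0.00218), at least 1.53-fold, and kept its call in the 13 alternatives that tested it. Of the probes above background at both stages, 11332+ rose by 2.01 ± 0.28 (SE, limma adjusted p = 0.000518), with E17.5 arrays of 5.24, 5.87 and 5.60 well above E14.5 arrays of 3.63, 3.62 and 3.42. Probe 11530- rose again, by 1.97 ± 0.27 (SE, limma adjusted p = 0.000533), and 11297+ rose by 1.80 ± 0.22 (SE, limma adjusted p = 0.000223).

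Around birth calls went both ways, and most of the 119 had none. In Neonatal, 14 of the 119 were called higher than at E17.5, 11.8%, and 3 lower, 2.52%. Of all probes tested 8.4% were called higher and 9.66% lower, and of lincRNA exons 6.72% and 11.9%. The difference from these shares was not tested. Of the 119 differences 79 were positive, against 49.9% of all probes and 39.9% of lincRNA exons. The median difference was 0.32 over the 119, against -0.23 over all lincRNA exons and 0.00 over all probes tested. It was closer to 0 in several settings: 0.09 with the slide as a block and within slide 2, 0.06 with normexp and 0.08 without E17.5 replicate 2, and it was 0.21 over the 55 in the authors' value table. Slide moved this count: E17.5 had a single array on slide 2, and with the slide as a block 2 were called higher and 1 lower. Within slide 2 alone 3 were called higher and 1 lower. Each of the 6 arrays also moved it: leaving out replicate 1, 2 or 3 of E17.5 gave 10, 7 and 40 calls, and leaving out replicate 1, 2 or 3 of Neonatal gave 10, 5 and 9.

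Probe 10415- rose at this step by 3.78 ± 0.39 (SE, limma adjusted p = 4.45e-05), or 13.7-fold, with Neonatal arrays of 2.90, 4.28 and 3.84 far above E17.5 arrays of -0.27, 0.45 and -0.49. It kept its call in all 15 alternatives, the slide block among them. Probe 10209- rose by 2.83 ± 0.51 (SE, limma adjusted p = 0.00203), at least 2.26-fold, with Neonatal arrays of -1.90, -1.93 and -1.95 against E17.5 arrays of -3.54, -5.26 and -5.46 that were below background. It too kept its call in each of 14 alternatives. Probe 10417-, called higher with a difference of 2.26, entered the test through Adult alone, and its rise is not read. The call was lost in 6 of 13 alternatives, the slide block included. The rises of 11242+ and 11283-, at 1.05 and 1.22, lay wholly below background at both stages, and both probes entered through Adult alone. Neither rise is read, and each lost its call in 8 of 13 alternatives.

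The 3 falls called around birth belonged to 2 exons. Probe 10104- fell by 1.36 ± 0.28 (SE, limma adjusted p = 0.0051), with Neonatal arrays of 1.06, 0.76 and 0.32 all below E17.5 arrays of 1.73, 2.16 and 2.34, and kept its call in all 15 alternatives. Probe 10104+ of the same exon was also called, with a fall of 1.65, but it entered the test through Adult alone. Its only array above background at these stages was E17.5 replicate 1, with raised negative controls, so its fall is not read. The call was lost in 6 of 13 alternatives, among them the one without E17.5 replicate 1 and the slide block. Probe 10646+ fell by 0.85 ± 0.22 (SE, limma adjusted p = 0.0173), with Neonatal arrays of -0.64, -0.57 and -0.69 below E17.5 arrays of 0.00, 0.31 and 0.33, and lost the call in 4 of 15, the slide block included. Probes 10104- and 10646+ therefore had a lower neonatal than late fetal signal and their highest signal in Adult.

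Over the 3 steps 75 of the 119 were called at none, 38 at 1 and 6 at 2. Probes 10415-, 11882- and 10120+ were called higher at both E17.5 and Neonatal, and 11530- at both E14.5 and E17.5. The E17.5 call of 10120+ set E17.5 against an E14.5 mean below background, and it was lost with quantile normalization and with normexp. The E17.5 call of 11882- was lost within slide 1. Probe 10646+ rose at E17.5 and fell in Neonatal, and 10088+ fell at E14.5 and rose in Neonatal. The Neonatal calls of 11882-, 10120+, 10646+ and 10088+ were lost with the slide as a block.

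**Figure D3:**
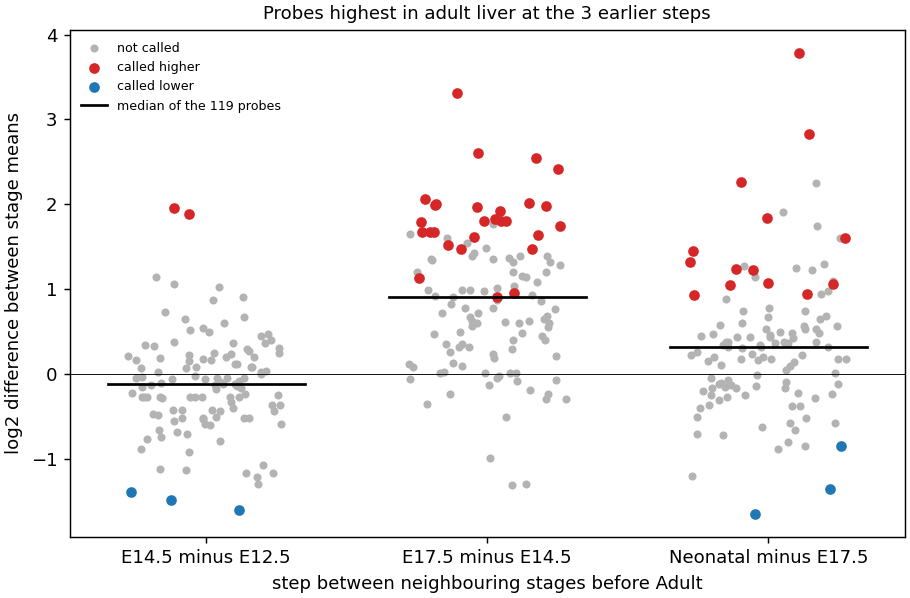
Log2 difference of stage means for each of the 119 probes at the 3 steps between stages before Adult; red points were called higher and blue points lower by limma at an adjusted p below 0.05, and black lines are medians over the 119. The median lies near 0 at the first step, at 0.91 for E17.5 minus E14.5 and at 0.32 for Neonatal minus E17.5, where 3 blue points lie among 14 red ones.

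The probe of opposite sign for the same exon was on the array for all 119. Of these partners, 70 passed the background condition, and 22 of the 70, or 31.4%, met the adult rule themselves, where 6.35% of all lincRNA exons tested did. These 22 are both probes of 11 exons, each counted as the partner of the other, so those exons enter the counts of the 70 with both probes. The partners tested had a median adult difference of 0.23, and 43 of the 70 were above 0, where 36.3% of all lincRNA exons tested were. The 48 partners that were tested and did not meet the rule had a median of -0.08, and 21 were above 0. On the adult arrays, 65 of the 119 partners were above background on all 3 and 46 on none, and 15 were above background on no array at all. Over the 15 arrays, which the probes share, a probe and its partner correlated at a median r of 0.49 among the 70. Among all 526 opposite-sign pairs tested the median r was 0.20. The adult arrays that the rule chose on are included, and the 11 exons chosen with both probes enter the 0.49 with each probe. A higher r among the 70 is thus partly built in, and the difference is not read as agreement between partners.

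Some exons gave matching profiles with both probes and others gave opposed ones. For 11332 the pair correlated at r = 0.99: the minus probe had means of -1.42, -0.81, 1.48, 2.03 and 2.96 over the stages in order of age, and its adult difference of 0.93 fell just short of the rule. Exons 11297, 10104, 11268, 10646 and 11138 met the rule with both probes at r between 0.95 and 0.97, the adult arrays that chose them included. At the other end, 11508+ averaged 3.02 ± 0.25 in Adult and 1.54 ± 0.08 in Neonatal, while 11508- averaged -1.90 ± 0.22 in Adult and had means of 0.42, 0.58, 0.32 and 1.62 over the 4 earlier stages in order of age. The 2 probes of exon 11508 correlated at r = -0.90, and the adult difference of the minus probe was -3.53. Exon 12121 was alike in this: 12121- met the rule with a difference of 1.35, and 12121+ had -3.02, with r = -0.81. In all, 10 of the 70 partners had an adult difference below -1. How many of all lincRNA exons tested lay below -1 was not counted, and their median was -0.30. The 10 are therefore not read as a trait of the partners. Of the partners of the 5 probes with the highest adult signal, 11332- alone had a positive difference among the 4 tested: 11400- had -0.38, 10415+ had -0.25 and 10088- had -0.15. The partner 11530+ did not pass the background condition.

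**Figure D4:**
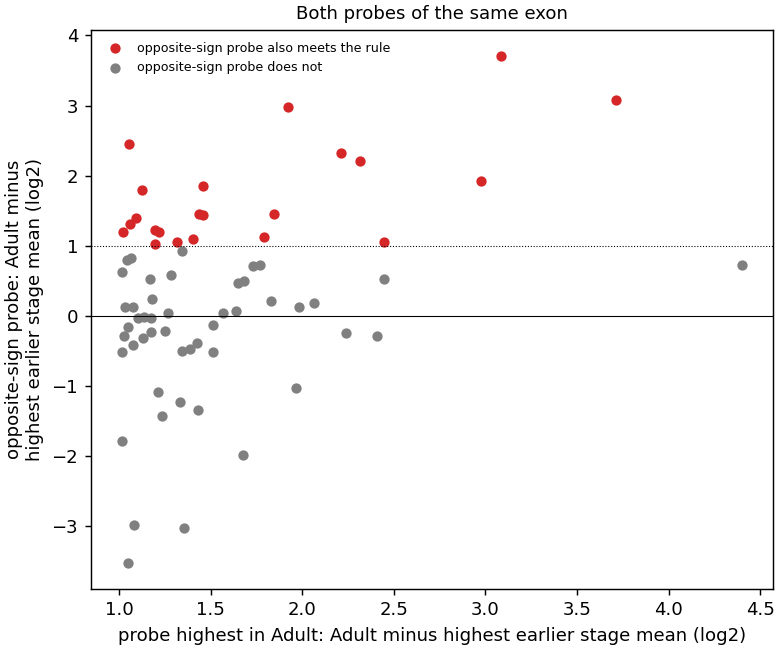
Adult mean minus the highest earlier stage mean (log2) for each of the 70 probes whose opposite-sign partner was tested (horizontal axis) and for that partner (vertical axis); red points are partners that met the adult rule, the dotted line is its threshold of 1. The 22 red points lie above the line and 10 partners lie below -1.

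Exon numbers run in order in the probe names, and what a neighbouring number means in the genome is not given in the sources used here. Over the 15 arrays, probes of the same sign correlated at a median r of 0.20 for neighbouring numbers (929 pairs), 0.13 for numbers 2 apart and 0.07 for numbers 21 to 100 apart, as a description of probes that share the same arrays. Of the 215 tested probes with the same sign as an adult-highest probe and the next or next but one number, 20 met the rule, 9.30%, where 6.35% of all lincRNA exons tested did. Each of these 20 is counted as the neighbour of another of them, so they are not separate cases, and the difference between the shares was not tested. The 195 neighbours that did not meet the rule had a median adult difference of -0.24, and 81 were above 0, so most neighbours of the same sign did not share the adult excess. With probes of either sign counted together, 24 of the 119 lay in 9 runs of such numbers.

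The run with the most adult-highest probes was exons 11295 to 11297, where 5 of the 6 probes met the rule. Probe 11297+ read 0.72, 0.45 and 0.47 on the E12.5 arrays, 0.38, 0.79 and 0.42 on the E14.5 arrays, 2.30, 2.62 and 2.06 on the E17.5 arrays, 2.68, 2.91 and 2.89 on the Neonatal arrays, and 5.23, 4.95 and 5.25 on the Adult arrays. Its partner 11297- read -4.96, -5.47 and -5.23 on the E12.5 arrays, -5.13, -4.48 and -4.02 on the E14.5 arrays, -1.84, -2.24 and -3.38 on the E17.5 arrays, -2.16, -2.52 and -1.47 on the Neonatal arrays, and -0.11, 0.24 and 0.34 on the Adult arrays. Both were low at E12.5 and E14.5, intermediate at E17.5 and in Neonatal and highest in Adult, with r = 0.97 between them. Probe 11295+ averaged -0.42 ± 0.39, -0.47 ± 0.38, 0.57 ± 0.49, 1.64 ± 0.43 and 3.28 ± 0.45 at the 5 stages from E12.5 to Adult (SD, n = 3 each). Probe 11296+ was flat until birth, with means of 3.08, 3.56, 3.57 and 3.44 from E12.5 to Neonatal, and 5.42 in Adult. The exception was 11295-, whose adult difference was 0.07.

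In the run from 11136 to 11138, both probes of exons 11136 and 11138 met the rule, and neither probe of 11137 passed the background condition. Probe 11138+ averaged 0.64 ± 0.07, 0.75 ± 0.14, 1.70 ± 0.25, 2.35 ± 0.24 and 3.75 ± 0.11 from E12.5 to Adult, and each later stage from E17.5 lay above the one before it without overlap. Probe 11136+ averaged 4.65 ± 0.29 in Adult and 3.45 ± 0.16 in Neonatal (SD, n = 3 each), with E12.5 at 3.44 ± 0.53. Another run held 11312+, 11314+ and 11316+, with adult differences of 1.53, 1.28 and 1.96, all of plus sign, and 3 of its 10 probes met the rule. All other runs held 2 adult-highest probes each. The first of these by exon number were 10002- with 10003+, and 10007- with 10008-.

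**Figure D5:**
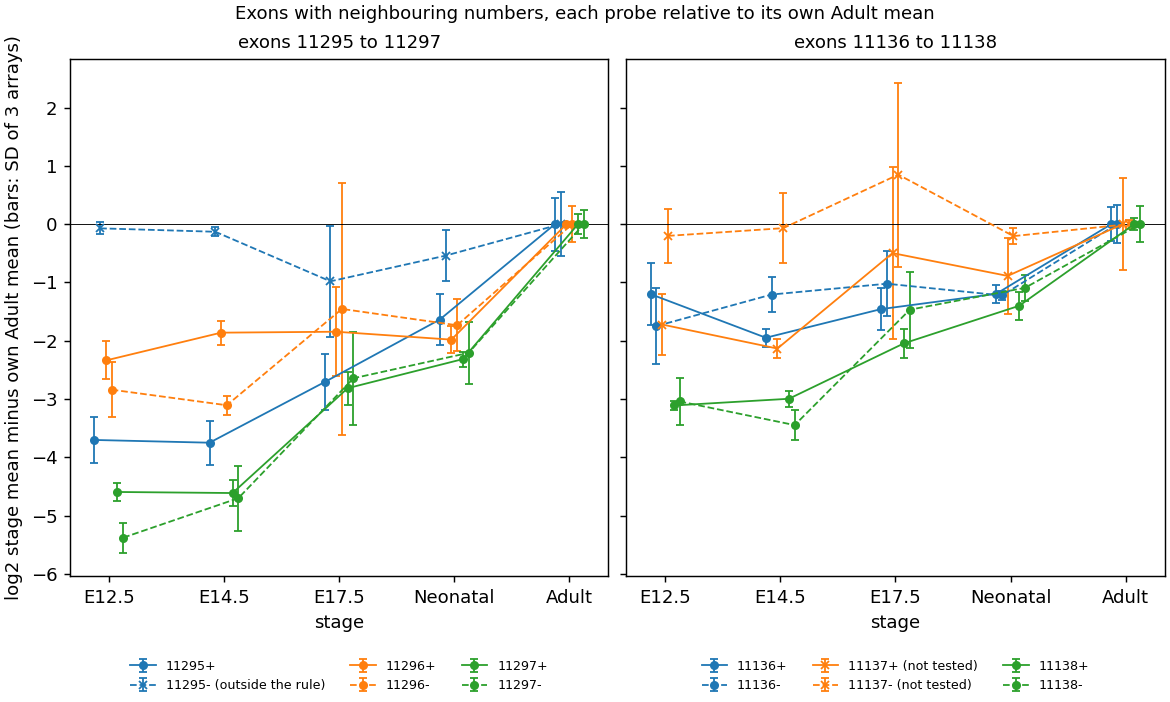
Stage means minus each probe's own Adult mean (log2), with the SD of 3 arrays, for all probes of exons 11295 to 11297 and 11136 to 11138; solid lines are plus and dashed lines minus probes, and crosses mark probes outside the rule. Both probes of 11297 start more than 4 below Adult at E12.5 and those of 11138 about 3 below, whereas 11295- stays within 1 of its Adult mean throughout.

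Each of the other stages was on top in fewer lincRNA exons. The same rule with another stage on top took 43 probes at E12.5, 8 at E14.5, 3 at E17.5 and 12 in Neonatal, against 119 in Adult. Over all probes tested it took 758, 137, 139, 635 and 2650 with the stages in the same order. The share meeting the adult rule was 5.24% among probes named for mouse lincRNAs (13 of 248), 5.64% among those named for human lincRNAs (23 of 408), 5.17% among ultraconserved elements (17 of 329) and 9.52% among probes with a RefSeq accession (8 of 84), so the lincRNA exons lay within the range of the other kinds of probe. The 8 RefSeq probes that met it stood for Csprs, B020031M17Rik, Hhipl2, B2m, Vamp7, H2ac18, Tmlhe and Gm13304, with differences from 1.09 to 2.27. Of these, Vamp7 is a vesicle fusion protein, H2ac18 a core histone and Tmlhe the first enzyme of carnitine synthesis. Hmgcs1, the cholesterol synthesis enzyme that makes HMG-CoA, fell just short at 0.99.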

How the data were processed

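Cy3 intensity values were deposited for 15 Agilent arrays of rRNA-depleted, random-primed liver RNA; per the file headers they are linear, background-subtracted by Feature Extraction 11.0.1.1 (the submitters' processing notes name 10.7.3.1), and multiplicatively detrended on slide 2 except Adult replicate 2. The authors' deposited value table holds log2 values, with normalization not given in the sources used here, and served as an alternative. Stages came from the sample titles. Control and outlier spots were left out, spots of a probe averaged, and log2 processed signal minus the array's 75th percentile over noncontrol probes was fitted with limma 3.58.1 in R 4.3.3 (lmFit and eBayes, 1 mean per stage, two-sided, Benjamini-Hochberg over 37361 probes, adjusted p below 0.05). The fit was tested on simulated data. Normexp (offset 50) used median spot signals, since the columns analysed held no mean signal. Slides were inferred from the scan date alone, and no array position occurred more than once within a slide. The deviations from the stage means of arrays with the same replicate number correlated above 0.1 in 7 of 30 pairs (r from -0.24 to 0.48), so the numbers were not taken to pair samples. The exons, the lists and the tests were chosen with earlier results of these data known. Named were the 10 largest adult differences, the 10 highest adult means and the 5 probes on each side of the threshold. Named too were up to 3 called rises and 3 falls per step and the partners of the 5 highest adult means. The list also held symbols meeting the rule and 5 runs, ordered by number of probes and then by exon number. Other probes were named after their values were seen. Arrays, 3 per stage, limit the precision. Alternatives were scaling, background correction, filter, slide, replicate block, arrays in the fit, limma-trend and each array left out.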

Additional observations from a re-analysis of the deposited data

How the results depend on the processing

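The number of lincRNA exon probes meeting the adult rule was 119 and was 107 with quantile normalization, 139 with no background filter and 176 with the slide as a block (87 of them among the 119), all within 1.5 times. It was 42 with normexp, all among the 119, 47 in the authors' value table, which holds 55 of the 119, and 198 within slide 2, an alternative added after seeing the data. Leaving out 1 array gave 106 to 188, the highest without Adult replicate 2, and 67 of the 119 met the rule in each of these 15 settings. Under normexp 29 of 46 probes above background on all arrays met it, 13 of 65 in the middle group and 0 of 8 detected in Adult alone. For E14.5 against E12.5, the 5 calls became 3 with no filter and 2 to 8 without 1 array. For E17.5 against E14.5, the 28 calls became 13 in the authors' table and 10 within slide 1, and 20 to 40 without 1 array, the highest without E17.5 replicate 2; every call in these settings was a rise. For Neonatal against E17.5, the 17 calls became 11 with normexp, 8 in the authors' table, 10 with no filter, 3 with the slide block, 10 without the Adult arrays, 4 within slide 2, and 5 to 40 without 1 array, the highest without E17.5 replicate 3 and the lowest without Neonatal replicate 2. With the replicate block the counts were 4, 29 and 20 for the 3 steps. Of the 50 calls at the 3 steps, 15 held in every alternative that tested them and 35 were lost in at least 1; the one that changed direction was 12121- in Neonatal against E17.5, at -0.12 with the slide block and within slide 2. The cause of these shifts was not tested, except that the authors' table, the single-slide fits and the fit without Adult arrays hold fewer of the 119. Dim probes limit the results: 73 of the 119 were below background on some array, and their measured folds rest partly on such values; the folds given as "at least" are lower bounds.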
